A study of Mus musculus with 8 samples.

Results

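The genes described here are 7 whose products act on the integrated stress response before its transcription factor ATF4: the eIF2α kinase genes Eif2ak1, Eif2ak2, Eif2ak3 and Eif2ak4, the phosphatase regulator genes Ppp1r15a and Ppp1r15b, and Oma1, a mitochondrial protease gene. They were taken by symbol from a table of 43430 genes, and all 7 were present and passed the filter on low counts. The libraries were made from lung endothelium of C57BL/6 mice aged 15 days, sorted on the surface protein CD31. The 4 wild-type (WT) libraries and the 4 knockout (KO) libraries carry the same tamoxifen protocol, with the drug given from postnatal day 0 to day 4. The KO label stands for an induced endothelial deletion of QPC, a protein of the mitochondrial bc1 complex (complex III), and Uqcrq was read as its gene. The driver of the deletion is not given in the sources used here, nor whether the libraries of a group came from different mice. A p-value here thus reflects only how far these samples spread, and that spread may be technical.

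The integrated stress response starts when one of the kinases phosphorylates the α subunit of eIF2, the factor that brings the initiator tRNA to the ribosome. Most translation then slows, while the mRNA of ATF4 is translated more. Eif2ak1 encodes HRI, which is inhibited by haem and also relays mitochondrial stress, Eif2ak2 encodes PKR, activated by double-stranded RNA, Eif2ak3 encodes PERK, a sensor of unfolded protein in the endoplasmic reticulum, and Eif2ak4 encodes GCN2, activated by uncharged tRNA and stalled ribosomes. The proteins of Ppp1r15a (GADD34) and Ppp1r15b (CReP) bring protein phosphatase 1 to eIF2α, the former as an induced feedback arm and the latter constitutively. OMA1 cleaves DELE1 on mitochondrial stress, and the cleaved form activates HRI. The kinases and OMA1 are controlled largely at the level of protein activity, which RNA counts do not measure.

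Uqcrq, the gene taken as the target, was at 26.3, 24.5, 26.8 and 31.5 CPM in WT replicates 1 to 4 and 1.59, 15.6, 9.57 and 14.0 in KO replicates 1 to 4 (CPM, read counts scaled to TMM-normalised library size). Each KO library lay below each WT library, at a mean of 37.3% of WT, with the least in KO replicate 1 (edgeR adjusted p = 0.179). In bulk samples fewer cells of a type and less RNA per cell cannot be told apart.

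None of the 7 genes passed the transcriptome-wide test between KO and WT. By edgeR's quasi-likelihood test with Benjamini-Hochberg adjustment, 0 of 7 were called at 0.05, where 3.63% of the 12689 genes tested were, and 0 of 7 were called by DESeq2 or by limma voom. Over the whole table edgeR called 461 genes, DESeq2 788 and limma voom 561. At an unadjusted edgeR p under 0.05 there was 1 of the 7, against 15.2% of all genes tested. That gene was Eif2ak1, which was also the 1 member whose KO libraries did not overlap its WT libraries, at 67.1% of the WT level. Oma1 and Eif2ak4 had mean levels in KO of 198% and 211% of WT, with wide intervals. Fitted log2 fold changes were positive for 4 members and negative for 3, with a median of 0.17 beside 0.01 over all genes tested. In simulated data edgeR called 22% of the genes changed 2-fold, so a gene that was not called may still have changed.

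Promoter sequences of the members were set beside that of Asns, the asparagine synthetase gene and a known ATF4 target, which rose in KO. RefSeq promoter windows of GRCm38.p6, from 250 bases before to 50 after an annotated start, were at hand for 6 of the 7 members. Ppp1r15b had no entry. The windows were searched on both strands for TGATGNAA (the core of the C/EBP-ATF response element bound by ATF4), TGACGTCA (the cyclic AMP response element), GAAA, any 2 bases and GAAA again (the interferon-stimulated response element), CCAAT, any 9 bases and CCACG (the endoplasmic reticulum stress element) and CCAAT, which is also the start of the latter. The first was found in 0 of 6 members and in 8 of 21 ATF4 target genes with an entry, against 3.97% of all 32851 windows. At that share, 0 of 6 does not set the members apart from other genes. The count covers TGATGNAA only, and not other sites that ATF4 may bind. A gene with more than 1 window was counted for a match in any of them, while the share is per window. Of those 8 targets 6 were tested for a change in expression and 3 were called higher in KO, Asns, Chac1 and Pycr1. Of the 13 targets without a match 13 were tested and 5 were called higher. Over all genes tested 2.25% were called higher. The call of Asns held in all 18 alternatives. That of Chac1 (edgeR adjusted p = 0.0309) was lost in 8, by limma voom, with the replicate block, without WT replicate 1 or 2, without KO replicate 1, 2 or 3, and with WT replicate 3 and KO replicate 1 left out together, with an adjusted p of up to 0.132. That of Pycr1 (0.0421) was lost in 10, with the replicate block, without any 1 library and with that pair left out, with an adjusted p of up to 0.197. DESeq2 gave neither of the latter genes an adjusted p. Ppp1r15a held TGACGTCA, found in 1.79% of all windows, at position -12 from its start, and GAAAGGGAAA at position -220. Eif2ak2 held GAAAACGAAA at position 19 after its start. This element was found in 3.44% of all windows. The Eif2ak3 window held 6 CCAAT boxes, a number reached by 0.0791% of windows, while 37.4% held at least 1. The share of windows with that number was worked out for Eif2ak3 alone among the members. It is a description and not a test. No member held the endoplasmic reticulum stress element, found in 0.119% of windows. A match is a stretch of letters and does not show binding, nor does its absence show a lack of binding. The 250 bases before the start are printed for Ppp1r15a (chr7:45526269-45526518, minus strand), Eif2ak3 (chr6:70844265-70844514, plus strand) and Asns (chr6:7693210-7693459, minus strand), with matches in capitals. These are the interferon and cyclic AMP elements in Ppp1r15a, the CCAAT boxes on either strand in Eif2ak3, and the C/EBP-ATF core in Asns.
Ppp1r15a: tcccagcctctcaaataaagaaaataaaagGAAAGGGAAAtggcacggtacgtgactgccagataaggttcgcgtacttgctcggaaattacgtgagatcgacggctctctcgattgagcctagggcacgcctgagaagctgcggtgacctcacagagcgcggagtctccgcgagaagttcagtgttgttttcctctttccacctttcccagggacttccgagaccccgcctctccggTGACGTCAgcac
Eif2ak3: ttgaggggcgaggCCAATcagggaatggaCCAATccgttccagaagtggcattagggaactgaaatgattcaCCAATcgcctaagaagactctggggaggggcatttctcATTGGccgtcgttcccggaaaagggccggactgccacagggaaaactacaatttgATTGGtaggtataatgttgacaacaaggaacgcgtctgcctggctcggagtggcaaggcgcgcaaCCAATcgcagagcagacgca
Asns: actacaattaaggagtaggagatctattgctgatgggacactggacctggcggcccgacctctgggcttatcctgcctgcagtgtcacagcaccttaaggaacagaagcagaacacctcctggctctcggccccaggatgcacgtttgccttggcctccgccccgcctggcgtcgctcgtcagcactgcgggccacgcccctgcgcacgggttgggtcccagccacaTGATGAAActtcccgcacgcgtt

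Levels are given as CPM for a gene across libraries, always in the order of replicates 1 to 4 where single libraries are listed, and as RPKM, CPM per kilobase of annotated exon, to compare genes. In WT the phosphatase regulators had the most transcripts per length. Ppp1r15a stood at 53.1 ± 20.4 RPKM and Ppp1r15b at 30.9 ± 5.43 RPKM (SD, n = 4 here and below). Their ranges overlapped, although Ppp1r15a was above Ppp1r15b in each of the 4 WT libraries. Eif2ak1 was the most abundant kinase at 12.4 ± 1.28 RPKM and lay apart from Ppp1r15b above it and Eif2ak2 below it. Eif2ak2 had 8.26 ± 2.15 RPKM, Eif2ak3 5.80 ± 1.61 RPKM and Oma1 4.35 ± 2.00 RPKM. The ranges of Eif2ak2 and Eif2ak3, and of Eif2ak3 and Oma1, overlapped. Eif2ak4 was lowest, at 1.02 ± 0.828 RPKM, below the range of Oma1. With the longest annotated transcript as the length in place of all exons, the ranges of Oma1 and Eif2ak4 overlapped in WT and those of Ppp1r15a and Ppp1r15b did not.

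The order at the top and bottom was alike in KO, with Ppp1r15a at 38.4 ± 6.86 RPKM, Ppp1r15b at 34.8 ± 5.05 RPKM and Eif2ak4 at 2.17 ± 0.860 RPKM. Between them lay Oma1 at 8.64 ± 3.29 RPKM, Eif2ak1 at 8.34 ± 1.48 RPKM, Eif2ak2 at 7.75 ± 2.84 RPKM and Eif2ak3 at 6.65 ± 0.954 RPKM. The range of each of these 4 overlapped that of the next in this order, while Oma1 lay apart from Ppp1r15b above it and Eif2ak3 from Eif2ak4 below it. The ranges of Ppp1r15a and Ppp1r15b overlapped too, and Ppp1r15a was the higher in 3 of 4 KO libraries. Oma1 exceeded Eif2ak1 in 1 of 4 KO libraries, replicate 1. With the longest transcript as the length, Eif2ak1 was above Oma1 in KO, at 10.9 against 9.67 RPKM.

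**Figure D1:**
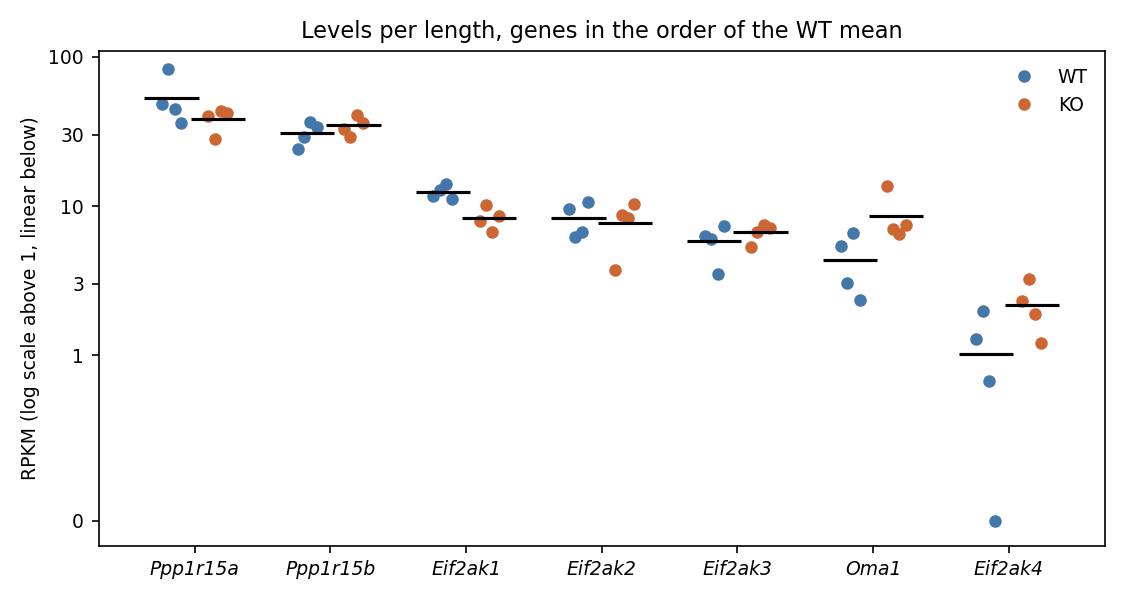
Levels per length (RPKM, vertical axis, log scale above 1 and linear below) of the 7 genes in the order of the WT mean, with a point per library and a bar at the mean of 4 libraries. Ppp1r15a and Ppp1r15b lie above all kinases in both groups, and Eif2ak4 is lowest, with WT replicate 4 at 0.

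Eif2ak1 (ENSMUSG00000029613) spans bases 143817788 to 143904251 of chromosome 5 (plus strand, GRCm38, the build also called mm10). Its transcript Eif2ak1-201 has 15 exons. Its level was 66.4, 72.2, 79.8 and 63.4 CPM in WT against 44.9, 57.9, 37.7 and 48.5 CPM in KO. Every KO library was below every WT library, a separation seen in 4.67% of genes tested in this direction and in 6.94% in the other, which 0 of the 7 members showed. The group means were 70.5 ± 7.24 against 47.3 ± 8.40 CPM. The exact two-sided permutation p of the mean was 0.02857, the lowest possible with groups of 4, in a test run for each of the 7 members. In the fit over all genes the log2 fold change was -0.58 (SE 0.22, 95% interval -1.03 to -0.12), which did not pass (edgeR adjusted p = 0.183). The adjusted p ran from 0.0819 by DESeq2 to 0.445 without KO replicate 3.

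Eif2ak1 shares 487 bases of exon with Aimp2, a scaffold gene of the tRNA synthetase complex on the other strand. With Ankrd61, also on that strand, it shares 172 bases. As the strand setting of the counting is not given, it is not known whether reads from these stretches were counted, or for which gene. Exons of Eif2ak2, Eif2ak3, Ppp1r15a and Ppp1r15b also overlap other genes on the opposite strand, by 12 to 640 bases. Aimp2 averaged 18.1 ± 6.77 CPM in WT against 12.8 ± 6.40 CPM in KO, with overlapping groups (edgeR adjusted p = 0.769). HRI is best known from red cells, and the 9 of 10 listed erythroid markers found in the table summed to 23.0 to 68.0 CPM in WT and 28.5 to 73.5 CPM in KO, with Klf1 and Epb42 at 0 in every library. Their part in the Eif2ak1 values was not tested. Among 12 genes of haem synthesis and breakdown 0 passed by edgeR, beside 3.63% of all genes tested. At an unadjusted edgeR p under 0.05 there were 2, beside 15.2% of all genes tested. DESeq2 called 1 of the 12 and limma voom 0, and their median log2 fold change was -0.02. The smallest p was that of Ppox, which encodes the enzyme before the last step of haem synthesis, at 20.4 ± 7.95 CPM in WT against 6.07 ± 1.87 CPM in KO (edgeR adjusted p = 0.0827). The adjusted p of Ppox was 0.00998 by DESeq2, 0.0458 with edgeR's newer dispersion option and up to 0.225 over 18 alternatives. Hmox1, the inducible haem oxygenase gene, averaged 24.3 ± 4.42 CPM in WT against 38.8 ± 4.03 CPM in KO (edgeR adjusted p = 0.229).

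Eif2ak2 (ENSMUSG00000024079, chromosome 17, 78852564 to 78882573, minus strand) varied more within the groups than between them. Its level was 49.0, 31.7, 34.1 and 54.0 CPM in WT against 18.9, 44.5, 42.3 and 52.9 CPM in KO. KO replicate 1 was the lowest of all 8 libraries, and the other KO values lay inside the WT range. The log2 fold change was -0.09 (SE 0.32, 95% interval -0.76 to 0.58, edgeR adjusted p = 0.962). Eif2ak2 is itself induced by interferon, and of 16 interferon-stimulated genes tested 1 was called higher in KO and 0 lower, where 2.25% of all genes tested were called higher. The called gene was Bst2, which encodes the antiviral protein tetherin, at 127 ± 30.1 CPM in WT against 214 ± 58.0 CPM in KO (edgeR adjusted p = 0.0497). This call was lost in 12 of 18 alternatives, among them the omission of any 1 library but WT replicate 2, with an adjusted p of up to 0.24.

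Eif2ak3 (ENSMUSG00000031668, chromosome 6, 70844515 to 70905245, plus strand) had 38.2, 36.2, 21.2 and 44.0 CPM in WT against 32.0, 40.1, 45.0 and 43.2 CPM in KO. WT replicate 3, the library of lowest depth, was lowest, and the groups overlapped. The log2 fold change was 0.20 (SE 0.28, 95% interval -0.40 to 0.79, edgeR adjusted p = 0.868). Of 16 genes of the unfolded protein response of the endoplasmic reticulum, the pathway that PERK serves, 0 passed by edgeR (8 at an unadjusted p under 0.05, 3 by DESeq2 and 1 by limma voom). Their median log2 fold change was 0.35, and 13 of 16 had a positive one. Of all genes tested 3.63% passed by edgeR and 15.2% had an unadjusted edgeR p under 0.05. Calr, the chaperone calreticulin, averaged 637 ± 57.0 CPM in WT against 876 ± 119 CPM in KO (edgeR adjusted p = 0.0622, and 0.0138 by DESeq2). Xbp1, the transcription factor gene of the IRE1 branch, averaged 217 ± 32.1 CPM in WT against 147 ± 29.6 CPM in KO (edgeR adjusted p = 0.0931, and 0.025 by DESeq2), with all KO libraries below all WT libraries.

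Eif2ak4 (ENSMUSG00000005102, chromosome 2, 118388618 to 118475234, plus strand) has 40 exons in its transcript Eif2ak4-206 and was the least abundant member. Its level was 9.54, 14.8, 6.28 and 0 CPM in WT against 17.2, 24.3, 14.0 and 9.05 CPM in KO. WT replicate 4 held 0 counts, which allows up to 0.247 CPM at 3 counts, although the other 7 libraries held 42 to 311 counts. KO replicate 4 lay below WT replicates 1 and 2, and KO replicate 3 below WT replicate 2, so the groups overlapped. The edgeR adjusted p was 0.738 at a log2 fold change of 1.08 (SE 0.96), with a 95% interval from 0.501 to 8.90 times the WT level. Without WT replicate 4 the log2 fold change was 0.66. The gene's biological coefficient of variation was 91.4%, beside a median of 38.0% over all genes tested.

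**Figure D2:**
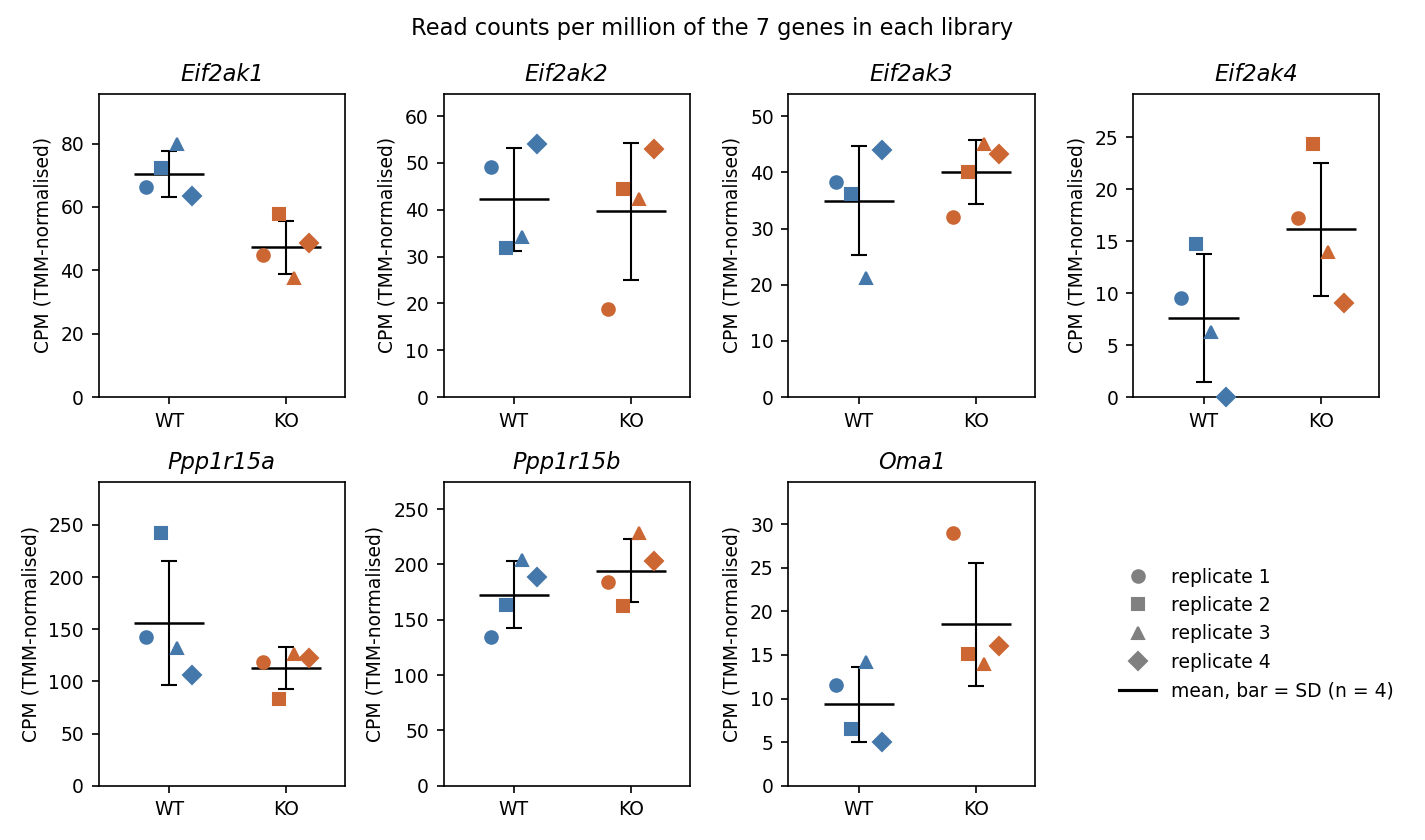
TMM-normalised CPM (vertical axes, each from 0) of each gene in WT and KO, with 1 marker shape per replicate number, a bar at the mean and an error bar of 1 SD (n = 4). The groups are apart for Eif2ak1 and overlap for the other 6 genes, and the 0 of Eif2ak4 is WT replicate 4.

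As shares of the kinases' summed RPKM, Eif2ak1 made up 40.5, 47.3, 56.1 and 38.5% in WT against 41.1, 35.4, 27.4 and 31.4% in KO. It was the leading kinase transcript in all 4 WT libraries and in KO replicates 1 and 2, and Eif2ak2 led in KO replicates 3 and 4 with 34.1 and 37.9%. The lead in KO replicate 3 turned on the length used: with the longest transcript, a choice made after seeing the data, Eif2ak3 had 32.0% and Eif2ak2 31.5%, and the other 7 libraries kept their leading gene. The mean share of Eif2ak1 was 45.6 ± 7.94% in WT and 33.8 ± 5.86% in KO, with overlapping ranges. Eif2ak3 made up 20.9 ± 4.78% and 26.9 ± 3.19%, and Eif2ak4 3.78 ± 3.03% and 8.88 ± 3.50%. The sum over the kinases was 27.5 ± 1.87 RPKM in WT and 24.9 ± 4.22 RPKM in KO, lowest in KO replicate 1 at 19.2 RPKM.

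Ppp1r15a (ENSMUSG00000040435, chromosome 7, 45522916 to 45526268, minus strand, 2 exons in Ppp1r15a-202) had 143, 243, 132 and 106 CPM in WT against 119, 82.9, 127 and 123 CPM in KO. WT replicate 2 was far above the rest and KO replicate 2 was lowest, while the other 6 libraries lay between 106 and 143 CPM. The group means were 156 ± 59.8 against 113 ± 20.2 CPM, with a log2 fold change of -0.47 (SE 0.23, 95% interval -0.96 to 0.02, edgeR adjusted p = 0.363). Without WT replicate 2 it was -0.17 (edgeR adjusted p = 0.823). Although Ppp1r15a is a classical target of the ATF4 pathway, it was not among the genes called higher.

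Ppp1r15a is also an early response gene, and immediate early genes, which cells switch on within minutes of stimulation or tissue digestion, were counted beside it. Of 17 tested 0 were called higher and 3 lower in KO, where 1.39% of all genes tested were called lower, with a median log2 fold change of -0.29. Egr1, a zinc finger transcription factor gene, fell in KO, at 275 ± 42.3 CPM beside 617 ± 134 CPM in WT (edgeR adjusted p = 0.00101, log2 fold change -1.16 with an SE of 0.17). Jun fell by 0.50 and Btg2 by 0.64 on the log2 scale (edgeR adjusted p = 0.0407 and 0.049). Both of these calls ended without any 1 library other than KO replicate 3 for Jun and KO replicate 4 for Btg2, with the replicate block, and with WT replicate 3 and KO replicate 1 left out together. The adjusted p reached 0.158 for Jun and 0.157 for Btg2. The summed level of the list was 7273, 7254, 5777 and 5056 CPM in WT against 4693, 4362, 5789 and 5143 CPM in KO. The part of these levels in the Ppp1r15a values was not tested.

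Ppp1r15b (ENSMUSG00000046062, chromosome 1, 133131143 to 133139783, plus strand) had 134, 164, 204 and 189 CPM in WT against 184, 162, 229 and 203 CPM in KO. The groups overlapped over most of their range. The log2 fold change was 0.17 (SE 0.17, edgeR adjusted p = 0.765), and its 95% interval spanned 0.881 to 1.44 times the WT level, the narrowest of the 7. The ratio of Ppp1r15a to Ppp1r15b in RPKM was 2.02, 2.82, 1.23 and 1.07 in WT against 1.23, 0.973, 1.05 and 1.15 in KO. The ratio was between 0.973 and 1.23 in 6 libraries and higher in WT replicates 1 and 2.

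**Figure D3:**
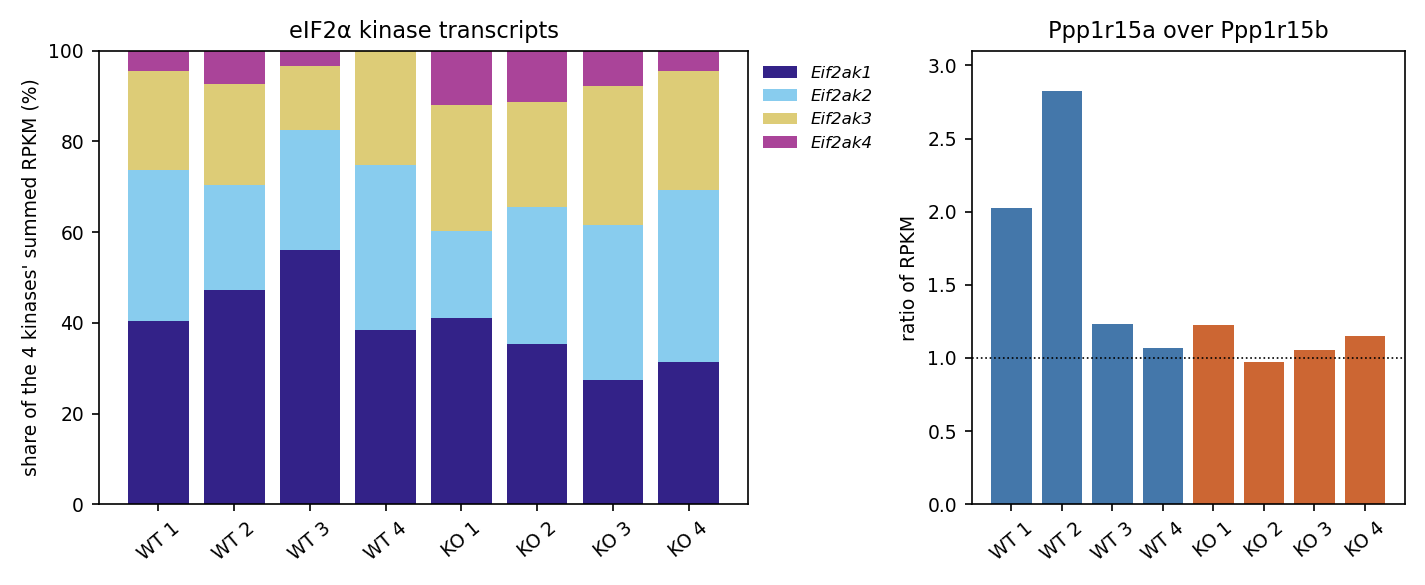
Left, the share (%) of each kinase gene in the summed RPKM of the 4 kinases in each library. Right, the ratio of Ppp1r15a to Ppp1r15b in RPKM in each library, with a dotted line at 1: WT replicates 1 and 2 stand at 2.02 and 2.82, the other libraries between 0.973 and 1.23.

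Among the partners of the phosphatase, 1 of 5 genes rose in KO and 0 fell, where 2.25% of all genes tested were called higher and 1.39% lower. The median log2 fold change of the 5 was 0.40. The called gene was Actb, whose product actin binds the PPP1R15 complexes and has many other uses, with 2286 ± 276 CPM in WT and 4691 ± 432 CPM in KO (edgeR adjusted p = 0.000207, log2 fold change 1.04 with an SE of 0.12). Actb has processed pseudogenes, and their part in its value was not tested. The call of Actb held in all 18 alternatives. Its highest adjusted p was 0.00506, by edgeR with WT replicate 3 and KO replicate 1 left out together. The catalytic subunit genes Ppp1ca, Ppp1cb and Ppp1cc were not called (edgeR adjusted p = 0.99, 0.138 and 0.978).

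Oma1 (ENSMUSG00000035069, chromosome 4, 103313812 to 103371868, plus strand, 9 exons in Oma1-201) had 11.5, 6.56, 14.2 and 5.02 CPM in WT against 29.0, 15.1, 13.9 and 16.0 CPM in KO. The groups overlapped by 1 library on each side, WT replicate 3 being just above KO replicate 3. Counts ran from 61 to 310 per library. The means were 9.33 ± 4.28 and 18.5 ± 7.06 CPM, with a log2 fold change of 0.99 (SE 0.51, 95% interval -0.09 to 2.07, edgeR adjusted p = 0.388, exact two-sided permutation p = 0.0571). Without KO replicate 1 it was 0.69 (edgeR adjusted p = 0.731), and without WT replicate 3 it was 1.27 (0.25).

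KO replicate 1, the library with the least Uqcrq, had the highest Oma1 and the lowest Eif2ak2 of all 8. KO replicate 3, next lowest in Uqcrq at 9.57 CPM, had the lowest Oma1 of the KO libraries, 13.9 CPM, and 42.3 CPM of Eif2ak2. The Uqcrq value of KO replicate 1 rests on 17 counts. That library also had 102 genes at 0 that held at least 40 counts in each of the other 7. The number of such genes was 0, 0 and 1 in KO replicates 2, 3 and 4, and 200 in WT replicate 3. A link between Uqcrq and the levels of Oma1 or Eif2ak2 was not tested.

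Dele1, whose product links OMA1 to HRI, averaged 77.1 ± 13.1 CPM in WT against 75.9 ± 23.8 CPM in KO (log2 fold change -0.02, 95% interval -0.51 to 0.47, edgeR adjusted p = 0.989). Its highest value, 111 CPM, was in KO replicate 1. Of 15 partners and substrates of OMA1 at the inner mitochondrial membrane, Dele1 among them, 0 passed by edgeR, beside 3.63% of all genes tested. At an unadjusted edgeR p under 0.05 there were 4, beside 15.2% of all genes tested. DESeq2 called 1 of the 15 and limma voom 1, and their median log2 fold change was 0.23. The smallest p was that of Stoml2, a scaffold protein gene of that membrane, at 32.0, 22.3, 34.8 and 30.5 CPM in WT against 53.1, 55.6, 55.3 and 57.0 CPM in KO. All KO libraries were above all WT libraries, but with an edgeR adjusted p of 0.0527 the difference missed the threshold (log2 fold change 0.89, SE 0.24). The threshold was met in 5 of 18 alternatives (adjusted p from 0.016 by DESeq2 to 0.15). Phb2, a prohibitin gene, averaged 106 ± 33.6 CPM in WT against 167 ± 13.7 CPM in KO (edgeR adjusted p = 0.123).

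**Figure D4:**
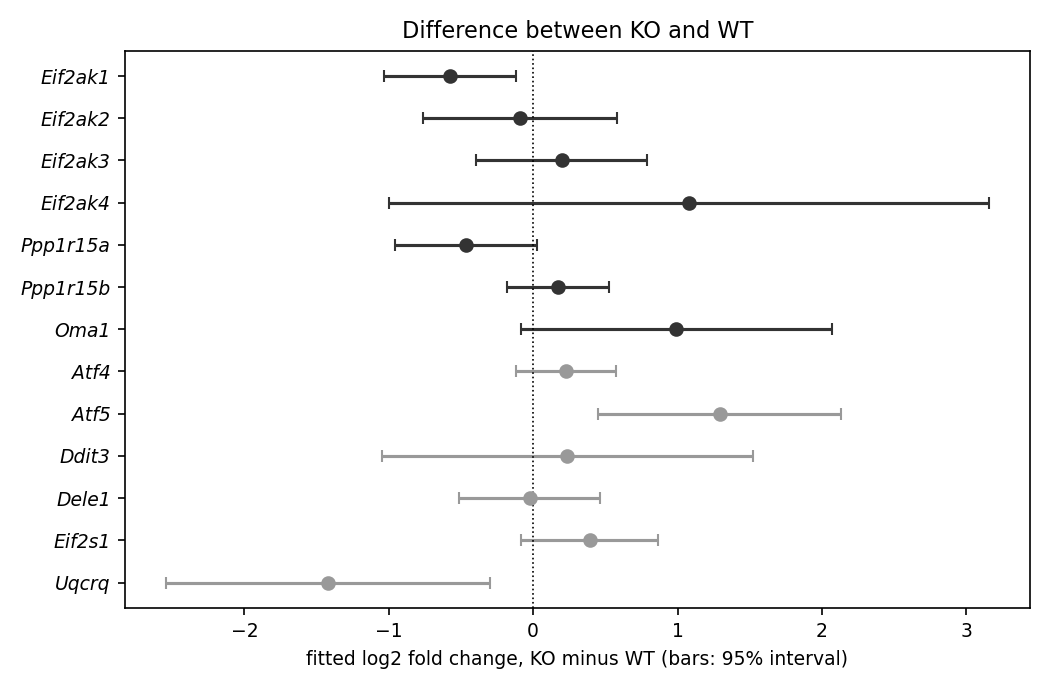
Fitted log2 fold change of KO minus WT (horizontal axis) with its 95% interval for the 7 genes (dark) and for Atf4, Atf5, Ddit3, Dele1, Eif2s1 and Uqcrq (grey). The interval of Eif2ak1 lies below 0 and those of the other 6 genes include 0, with Ppp1r15b narrowest and Eif2ak4 widest.

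The substrate and the regulators of the kinases were measured in the same fit. Eif2s1, which encodes the phosphorylated α subunit, averaged 83.2 ± 26.3 CPM in WT against 109 ± 20.2 CPM in KO (edgeR adjusted p = 0.471, log2 fold change 0.39 with an SE of 0.22). Of 8 genes of eIF2 and of its exchange factor eIF2B 1 rose, Eif2s2, the β subunit gene of eIF2, with 94.9, 104, 104 and 109 CPM in WT against 246, 175, 197 and 156 CPM in KO. All KO libraries of Eif2s2 were above all WT libraries (edgeR adjusted p = 0.00556, log2 fold change 0.91 with an SE of 0.17). The median of the 8 was 0.45, and 7 were positive. Beside the 1 of 8 called higher, 2.25% of all genes tested were.

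Of 12 genes for regulators of the kinases 2 rose and 0 fell, with a median log2 fold change of 0.16. Of all genes tested 2.25% were called higher and 1.39% lower. Both encode cytosolic Hsp90, which holds HRI and PKR among many clients. Hsp90aa1 rose in KO, at 233 ± 26.8 CPM beside 123 ± 10.9 CPM in WT (edgeR adjusted p = 0.00239, log2 fold change 0.92 with an SE of 0.15). Hsp90ab1 rose as well, to 1986 ± 87.7 CPM beside 1434 ± 75.9 CPM in WT (edgeR adjusted p = 0.0189, log2 fold change 0.47 with an SE of 0.11). The latter call ended with the replicate block (adjusted p = 0.0689), without WT replicate 3 (0.0627) or 4 (0.0628), without KO replicate 3 (0.0692) or 4 (0.059), and with WT replicate 3 and KO replicate 1 left out together (0.0654).

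Downstream of eIF2α, the mRNA of ATF4 itself was examined first. Atf4 had 239, 348, 229 and 235 CPM in WT against 306, 293, 369 and 265 CPM in KO (log2 fold change 0.23, SE 0.16, 95% interval -0.12 to 0.57, edgeR adjusted p = 0.612). WT replicate 2 was inside the KO range, and the other 3 WT libraries lay below it. Of 7 transcription factor genes of the response 0 passed by edgeR, beside 3.63% of all genes tested, and their median was 0.09. DESeq2 called 0 of the 7 and limma voom 1. At an unadjusted edgeR p under 0.05 there was 1, beside 15.2% of all genes tested. That 1 was Atf5, at 11.5, 17.2, 35.6 and 12.3 CPM in WT against 67.3, 49.2, 45.2 and 24.5 CPM in KO (edgeR adjusted p = 0.0922, log2 fold change 1.29 with an SE of 0.40). The groups of Atf5 overlapped through WT replicate 3, without which it passed (edgeR adjusted p = 0.0175, in a range up to 0.234 over 18 alternatives). Ddit3, the CHOP gene, averaged 10.1 ± 1.33 CPM in WT against 12.0 ± 7.93 CPM in KO (edgeR adjusted p = 0.938), and Atf3 81.1 ± 58.1 and 82.0 ± 25.5 CPM (0.998).

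Of 24 ATF4 target genes 21 were tested, and 9 were called higher and 0 lower, beside 2.25% and 1.39% of all genes tested. The median log2 fold change of the 21 was 1.60, beside 0.01 over all genes tested. It was the same with Pycr1, which had no counts in WT, at its bound. The list was chosen with earlier results of these data known. Asns had 27.8, 31.8, 8.67 and 25.4 CPM in WT against 174, 99.2, 146 and 64.1 CPM in KO (edgeR adjusted p = 0.006, log2 fold change 2.36 with an SE of 0.40). The KO libraries of Asns were all above the WT libraries. The other 5 with the smallest p were Mthfd2, Phgdh, Shmt2, Eif4ebp1 and Aldh18a1, enzymes of folate, serine and proline synthesis and a translation repressor. Mthfd2, a mitochondrial folate enzyme gene, averaged 4.70 ± 0.672 CPM in WT against 73.9 ± 32.5 CPM in KO (edgeR adjusted p = 3.16e-05), while Shmt2, which encodes the enzyme that feeds it carbon from serine, stood at 33.6 ± 7.21 against 102 ± 16.6 CPM (0.000906). A difference in change between the members and these targets was not tested.

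**Figure D5:**
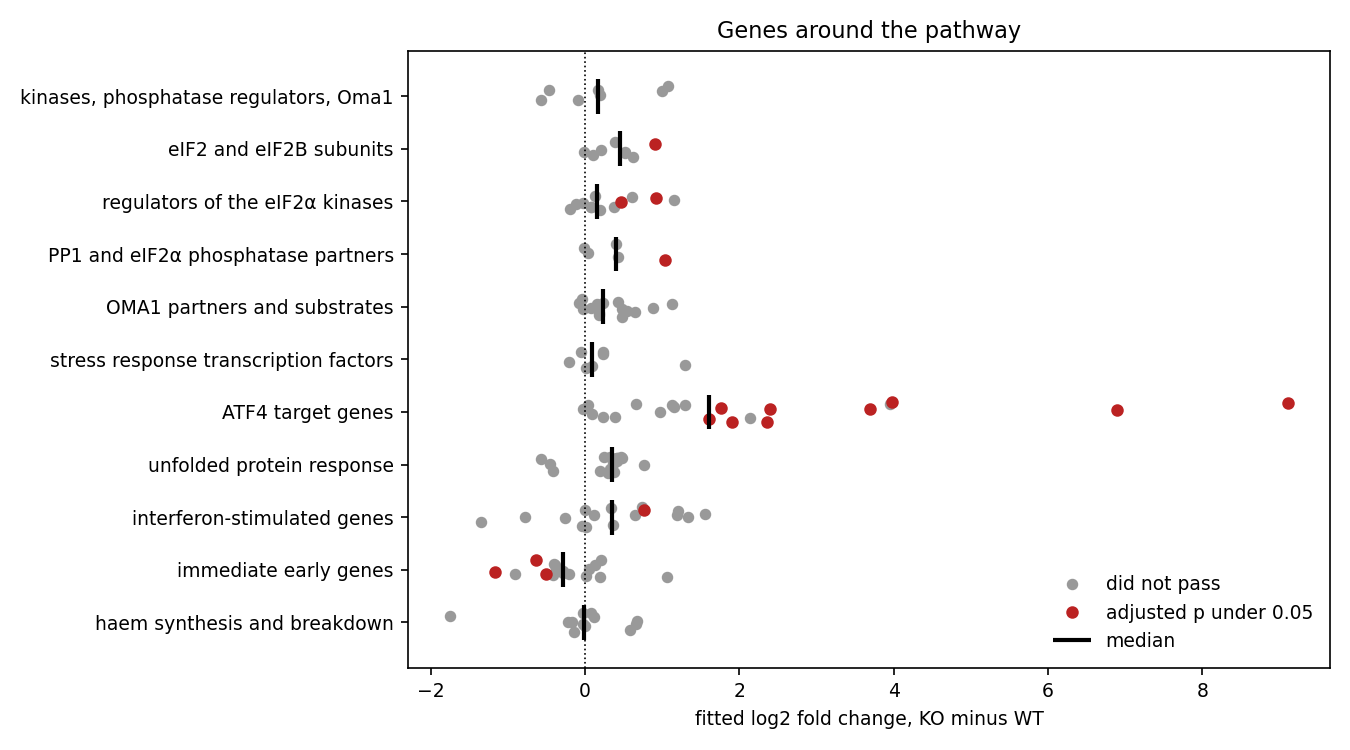
Fitted log2 fold change of KO minus WT (horizontal axis) of each tested gene of the 7 members and of 10 lists, a point per gene, red where the edgeR adjusted p was under 0.05, with a bar at the median. No member is red, and 9 of 21 ATF4 targets are. The point furthest right is Pycr1, listed at 0 in every WT library, whose fitted value depends on the prior count.

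The 3 genes whose log2 CPM followed each member most closely over the 8 libraries were listed from 10377 genes with a mean of at least 5 CPM. They were Sh2d3c, Gigyf1 and Sipa1l1 for Eif2ak1 (Pearson's r 0.972 to 0.978), Ehmt2, Ythdf2 and Cmc2 for Eif2ak2 (0.967 to 0.984), and Adprh, Fip1l1 and Hdac2 for Eif2ak3 (0.976 to 0.987). For Eif2ak4 they were Dlgap5, Sgo2a and Pet100 (0.965 to 0.966), for Ppp1r15a Ablim1, Bach2 and Cr1l (0.946 to 0.983), for Ppp1r15b Kif1bp, Man1a and Rtn3 (0.905 to 0.930), and for Oma1 Dok1, Hk1 and Pdia3 (0.956 to 0.976). These are the highest values of many over few libraries that share depth and group, and are given as a description.

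The shallowest library, WT replicate 3, held 6407924 counts and the deepest, KO replicate 4, held 13981329. Endothelial markers (Pecam1, Cdh5 and 8 others) summed to 15156 to 18043 CPM in WT and 13640 to 17872 CPM in KO. Of these 10, 1 was called higher and 2 lower, beside 2.25% and 1.39% of all genes tested. Alveolar type 2 markers, led by Sftpc, summed to 4226 to 24067 CPM in WT and 4029 to 17569 CPM in KO, so transcripts typical of another lung cell type were abundant in both groups and varied between libraries. Mesenchymal markers summed to 147 to 934 and 245 to 888 CPM, and leukocyte markers to 10.5 to 86.7 and 14.6 to 54.7 CPM. Platelet markers summed to 5.98 to 37.1 and 16.9 to 55.6 CPM. The ranges of these lists overlapped between WT and KO, and their part in the values of the 7 genes was not tested.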

How the data were processed

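Raw read counts per gene of 8 libraries were used as deposited, 1 column per library, and all 8 value columns matched a sample label. The build mm10 and the tools TopHat, HTSeq, bcl2fastq and edgeR are listed in the submitters' processing notes. The annotation release and strand setting are not given there. Symbols, coordinates and exon lengths came from GENCODE M21 (GRCm38), which named 42546 of the 43430 gene IDs. Counts were normalised with TMM factors, filtered with filterByExpr (minimum count 10, minimum total 15), and KO was compared with WT by edgeR 4.0.16 (quasi-likelihood F test, robust, 1 term, genotype) under R 4.3.3. Adjustment was by Benjamini-Hochberg over all 12689 genes tested at 0.05. SE derive from the F statistic, and 95% intervals from the fit's t quantile, unadjusted for the number of genes. RPKM are TMM CPM per kilobase of the union of annotated exons. Counting floors (3 counts per library) cover counting error only, and no molecular identifiers are mentioned in the labels.

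The members and lists were chosen with earlier results of these data known. Genes named beside the members were fixed by rule: Uqcrq, Atf4, Ddit3, Atf3, Atf5, Dele1 and Eif2s1, up to 6 called genes of each of 10 lists with the smallest p (or 2 where none was called), and the 3 most similar genes per member. Aimp2, Chac1 and Pycr1, the PP1 catalytic subunit genes and the cell type markers named were outside that rule. The pipeline was tested on simulated data. There edgeR called 2% of the genes changed 1.5-fold, 22% of those changed 2-fold, 52% at 4-fold and 62% at 8-fold. Alternatives were other size factors, filters, DESeq2 1.42.0, limma voom (limma 3.58.1), edgeR's newer dispersion option, the replicate block, and leaving out each library. Leaving out WT replicate 3 and KO replicate 1 together was chosen after seeing the data. Replicates of a group differed by more than counting noise (chi-square over degrees of freedom from 34.4 to 77.1).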

Additional observations from a re-analysis of the deposited data

Results flagged for a closer look

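In 5 of 68 groups of 4 examined, 1 library stood far from the other 3 relative to the group's range, where chance gives about 5%. Oma1 had 29.0 CPM in KO replicate 1 and 13.9 to 16.0 CPM in the other KO libraries. Atf4 had 348 CPM in WT replicate 2 and 229 to 239 CPM in the other WT libraries. In the same library Bst2 had 172 CPM, with 110 to 114 CPM in the others. Eif2s1 had 122 CPM in WT replicate 1 and 67.7 to 73.6 CPM in the other WT libraries, and Actb 2696 CPM there and 2100 to 2183 CPM in the others.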

How the results depend on the processing

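None of the 7 members was called under any of 18 alternatives, with adjusted p from 0.0819 to 0.998, DESeq2 giving none for Eif2ak4. Directions held in 123 of 126 fits. The exceptions were all of Eif2ak2, at 0.14 without KO replicate 1, 0.05 without WT replicate 4 and 0.05 with WT replicate 3 and KO replicate 1 left out together. Leaving out 1 library moved its log2 fold change between -0.27 and 0.14, that of Eif2ak1 between -0.69 and -0.48, Eif2ak3 between 0.02 and 0.33, Eif2ak4 between 0.66 and 1.62, Ppp1r15a between -0.61 and -0.17, Ppp1r15b between 0.07 and 0.26 and Oma1 between 0.69 and 1.27. By limma voom Eif2ak4 stood at 2.75. The 461 genes called over the whole table became 788 by DESeq2, 746 with edgeR's newer dispersion option and 270 to 446 without 1 library, lowest without KO replicate 3; the causes were not tested. With the longest transcript as length, Eif2ak1 had 16.3 RPKM in WT and 10.9 in KO, Eif2ak3 7.74 and 8.88, and Eif2ak4 3.05 in KO, since that length is shorter. Same-numbered WT and KO libraries did not deviate together (r -0.104 to 0.00442), so the numbers were not taken to pair them. The replicate block left 338 genes called and none of the members, with Eif2ak1 at -0.59 (edgeR adjusted p = 0.289) and Oma1 at 1.05 (0.479). Counts were lowest for Eif2ak4 and Oma1, whose smallest counts above 0 in a library were 42 and 61. The 0 of Eif2ak4 was in WT replicate 4, of 11951816 counts, and not in the shallowest library.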

Other observations

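The 0 of Eif2ak4 in WT replicate 4 was 1 of 27 genes with 0 counts in that library and at least 40 counts in each of the other 7. The number of such genes was 200 in WT replicate 3, 102 in KO replicate 1, 33 in WT replicate 2, 10 in WT replicate 1, 1 in KO replicate 4 and 0 in KO replicates 2 and 3.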
